A study of Mus musculus with 20 samples.

Results

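Gabra2, Gabra3, Gabra4, Gabra5, Gabrb1, Gabrb2 and Gabrd encode subunits of the GABA-A receptor, and their RNA was followed in the striatum of 20 mice on Affymetrix Mouse Gene 2.0 ST arrays. These 7 genes, of 22180 tested, were taken by symbol from the array rows that carry exactly 1 gene symbol, and each had a single such row. The mice were 12 months old, on a C57B6/J background, in 4 groups of 5. WT mice carry no transgene and are littermates of ASO mice, which express human wild-type α-synuclein from a PDGF-β promoter (line D). Vehicle mice (WT-Veh, ASO-Veh) received saline, and NSC mice (WT-NSC, ASO-NSC) received GFP-expressing mouse neural stem cells, grown from hippocampus and cortex of newborn syngeneic GFP-transgenic mice, in the striatum. Each array held the dissected striatum of 1 mouse, so neurons, glia and any grafted cells were measured together. In such tissue, fewer cells of a type and less RNA per cell cannot be told apart.

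GABA-A receptors are chloride channels gated by GABA, the main inhibitory transmitter of the brain, and each is a ring of subunits drawn from the α, β, γ, δ and rarer families. The α subunit sets much of the receptor's place in the cell and its response to drugs. The β subunit forms the GABA site together with α. Receptors with a γ subunit gather at synapses, whereas those that combine α4 (Gabra4) with δ (Gabrd) lie outside the synapse and carry a tonic current in response to ambient GABA. The striatum is built mainly of spiny projection neurons, which release GABA and are in turn inhibited by it.

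The starts of Gabra4, Gabra3 and Gabra5 are shown because these genes varied most closely with or against Gabrd from mouse to mouse. Each line gives the 250 bases before an annotated start, 5′ to 3′ on the strand of the gene, from RefSeq on GRCm38.p6. Capitals mark the letters of 3 short motifs, searched on both strands, so that a match on the opposite strand is printed as its reverse complement. They are the CCAAT box, the GC box, here with the letters GGGCGG, and the TATA box, here with the letters TATAAA.
Gabra4: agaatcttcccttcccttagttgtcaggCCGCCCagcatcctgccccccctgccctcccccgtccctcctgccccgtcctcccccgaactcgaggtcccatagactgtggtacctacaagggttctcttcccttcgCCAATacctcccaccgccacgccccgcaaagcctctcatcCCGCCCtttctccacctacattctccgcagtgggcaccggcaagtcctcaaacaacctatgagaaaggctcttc
Gabra3: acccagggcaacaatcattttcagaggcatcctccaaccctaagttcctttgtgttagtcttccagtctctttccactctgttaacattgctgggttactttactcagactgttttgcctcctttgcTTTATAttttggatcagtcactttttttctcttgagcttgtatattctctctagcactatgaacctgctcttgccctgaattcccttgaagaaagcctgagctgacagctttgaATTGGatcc
Gabra5: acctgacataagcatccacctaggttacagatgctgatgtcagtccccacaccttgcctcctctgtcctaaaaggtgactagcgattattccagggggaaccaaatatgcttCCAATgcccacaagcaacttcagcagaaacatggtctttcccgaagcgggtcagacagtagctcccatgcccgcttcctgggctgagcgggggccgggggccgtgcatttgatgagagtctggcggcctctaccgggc
The Gabra4 stretch lies at chr5:71658309-71658558 on the minus strand, inside the annotated span of Gabrb1. The Gabra3 stretch lies at chrX:72656920-72657169 on the minus strand, outside the gene. The Gabra5 stretch lies at chr7:57510060-57510309 on the minus strand, inside the span of Gabra5, which has a start farther out. Gabra4 held 1 CCAAT and 2 GGGCGG in this stretch, Gabra3 held 1 CCAAT and 1 TATAAA, and Gabra5 held 1 CCAAT. Of 32851 stretches of this length before RefSeq starts, 33.8 percent held CCAAT, 32.7 percent GGGCGG and 12.4 percent TATAAA. The bases differed most in Gabra3, with 42.4 percent G or C and 0 CG pairs, against 61.2 percent and 12 in Gabra4 and a median of 52.4 percent and 6.0 over all stretches. Among these, 7.87 percent had no CG pair. A match of letters is a description and not a shown binding site. Of the 7 members, 6 had an entry, and Gabrd had none.

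Before the results, 3 facts of the series bear on the members. ASO-NSC mouse 59, which the study set aside as an outlier, was left out of the fits and is given beside them. Litters 1 and 5 held vehicle mice alone and litters 4 and 6 NSC mice alone, so treatment and litter can be separated only through litter 3, with ASO-Veh mice 46 and 47 and WT-NSC mouse 53. In litter 3 treatment and genotype differ together, so no litter compares treatments within a genotype. In 5 of the 20 arrays (WT-Veh mice 61 and 62, WT-NSC mouse 54 and ASO-Veh mice 45 and 47), Xist and the Y-linked genes differed from the labelled sex, and some of the Gabrd results are given without these arrays too. The tissue carried its defining genes at high levels, with 13 of 15 listed markers shared by spiny neurons measured and every one of them at 8.83 log2 units or more in each of the 19 mice of the fits. RNA integrity numbers ran from 9.2 to 9.7, and array medians from 6.168 to 6.281 log2 units. Arrays have no read depth, and precision is set by how many mice there were.

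No subunit gene passed the test in any of 7 comparisons of groups, and the members differed in how much they varied between mice of a group. Gabrd, Gabra5 and Gabra3 varied most. Values are log2 intensities after RMA, so a difference of 1 is a doubling, and levels are compared here only within a gene. The within-group SD was 0.204 for Gabrd, 0.2 for Gabra5 and 0.174 for Gabra3, where the median over the 6698 genes with a mean above 8 was 0.0997. Of those genes, 94.3, 93.9 and 90.2 percent had a smaller SD than these members, in the same order. At the other end were Gabrb2 (SD 0.0544) and Gabra2 (0.0676), with 5.08 and 15.4 percent of genes below them. Gabra4 (0.108) and Gabrb1 (0.114) were near the middle. Between the lowest and the highest of the 19 mice, Gabrd spanned 1.82-fold, Gabra3 1.6-fold, Gabra5 1.58-fold, Gabrb1 1.39-fold, Gabra4 1.27-fold, Gabra2 1.19-fold and Gabrb2 1.14-fold.

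**Figure D1:**
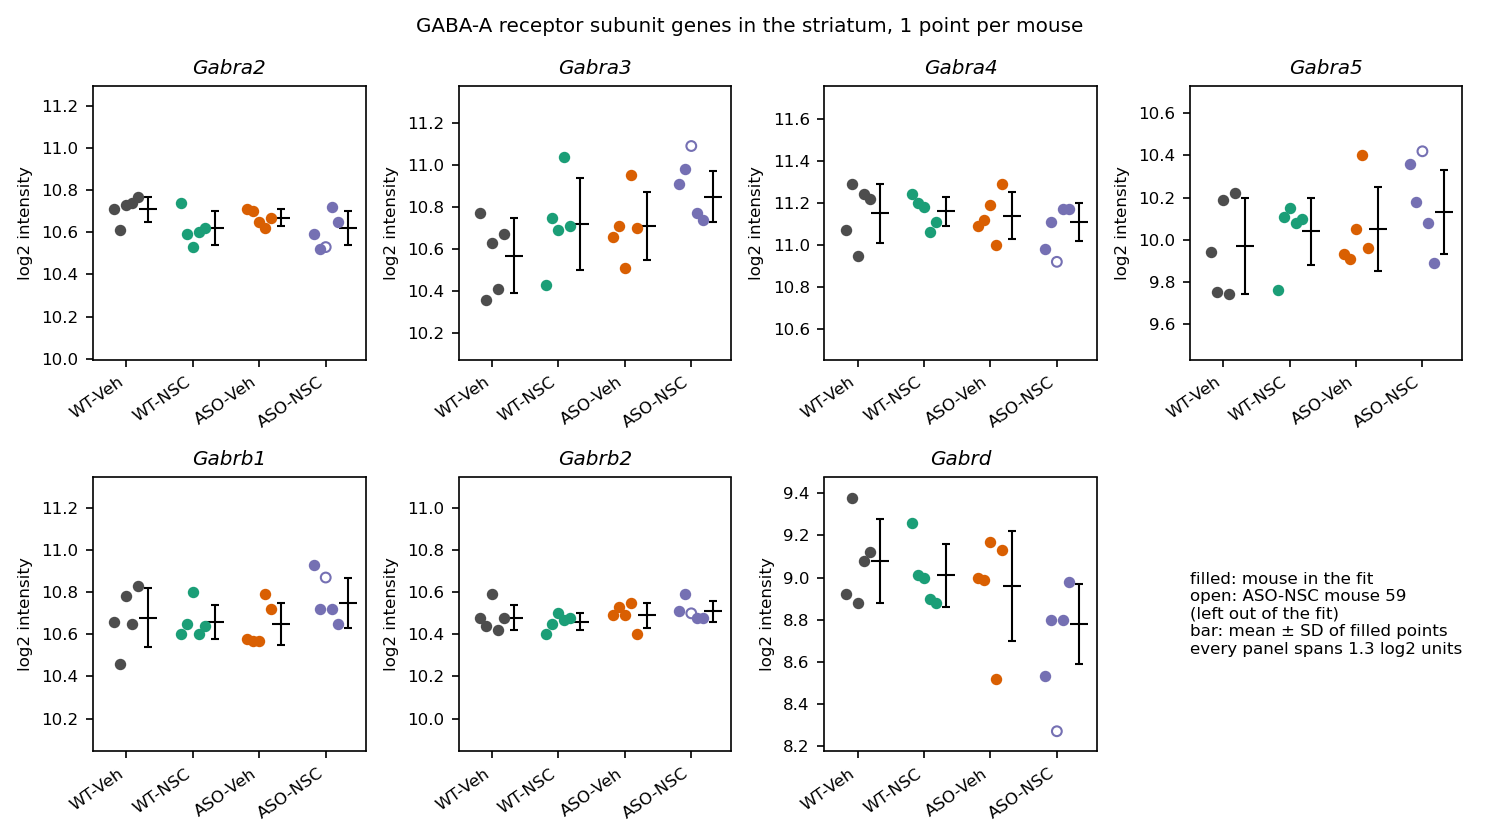
Log2 intensity of each subunit gene (vertical axis) in every mouse, by group (horizontal axis). Filled points are mice of the fits, the open point is ASO-NSC mouse 59, and bars give the mean and SD of the filled points. Gabrd, Gabra5 and Gabra3 scatter widely inside each group, whereas Gabrb2 and Gabra2 do not, and the groups overlap for every gene.

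Gabrd, the δ subunit of extrasynaptic receptors, was at 8.92, 9.38, 8.88, 9.08 and 9.12 log2 units in WT-Veh mice 61, 62, 64, 66 and 67. In WT-NSC mice 53, 54, 58, 70 and 74 it was at 9.26, 9.01, 9.0, 8.90 and 8.88. In ASO-Veh mice 42, 45, 46, 47 and 68 the level was 9.0, 8.99, 9.17, 8.52 and 9.13. Mouse 47 was far below the other 4 ASO-Veh mice, which otherwise sat inside the WT range. ASO-NSC mice 56, 57, 73 and 75 had 8.53, 8.80, 8.80 and 8.98, and mouse 59, outside the fits, had 8.27, the lowest of all 20. Group means descended from WT-Veh (9.08 ± 0.20, SD, n = 5) through WT-NSC (9.01 ± 0.15, SD, n = 5) and ASO-Veh (8.96 ± 0.26, SD, n = 5) to ASO-NSC (8.78 ± 0.19, SD, n = 4). Each step between neighbours was smaller than the larger SD of the groups beside it. WT-Veh and ASO-NSC, the ends of this order, lay farther apart than the SD of either group and were not compared in a test.

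Gabra4, the α subunit that partners δ, was at 11.07, 11.29, 10.95, 11.24 and 11.22 in the WT-Veh mice in the order above. The WT-NSC values were 11.24, 11.20, 11.18, 11.06 and 11.11. In ASO-Veh mice they were 11.09, 11.12, 11.19, 11.00 and 11.29. The mice that were low for Gabrd (47, and 56 below) were low here too. ASO-NSC mice 56, 57, 73 and 75 had 10.98, 11.11, 11.17 and 11.17, and mouse 59 had 10.92. The 4 group means lay between 11.11 and 11.16 with SDs from 0.07 to 0.14, and no group stood apart.

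Gabra2, the α subunit of many synaptic and axon-initial-segment receptors, was at 10.71, 10.61, 10.73, 10.74 and 10.77 in WT-Veh mice. In WT-NSC mice it was at 10.74, 10.59, 10.53, 10.60 and 10.62. Mouse 53 lay among the upper WT-Veh mice and WT-Veh mouse 62 among the WT-NSC mice, and the groups overlapped through these mice. ASO-Veh mice had 10.71, 10.70, 10.65, 10.62 and 10.67, and ASO-NSC mice 10.59, 10.52, 10.72 and 10.65, with 10.53 in mouse 59. Both groups of NSC mice had lower means (10.62 each) than WT-Veh (10.71) and ASO-Veh mice (10.67).

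Gabra3, an X-linked α subunit, was at 10.77, 10.36, 10.63, 10.41 and 10.67 in WT-Veh mice. WT-NSC mice had 10.43, 10.75, 10.69, 11.04 and 10.71. ASO-Veh mice had 10.66, 10.71, 10.51, 10.95 and 10.70. Mice 62, 66, 53 and 46, which were high for Gabrd or Gabra4, were the low ones here. In ASO-NSC mice the level was 10.91, 10.98, 10.77 and 10.74, with 11.09 in mouse 59. Means ran from 10.57 ± 0.18 in WT-Veh (SD, n = 5) through 10.71 ± 0.16 in ASO-Veh (SD, n = 5) and 10.72 ± 0.22 in WT-NSC (SD, n = 5) to 10.85 ± 0.12 in ASO-NSC mice (SD, n = 4). No neighbours in this order differed by more than the larger of their SDs. Its ends, WT-Veh and ASO-NSC, lay farther apart than the SD of either group and were not compared in a test.

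Gabra5, known from extrasynaptic receptors of hippocampal neurons, was at 9.94, 9.75, 10.19, 9.74 and 10.22 in WT-Veh mice. WT-NSC mouse 53 had 9.76 and the other 4 lay between 10.08 and 10.15. ASO-Veh mouse 47 had 10.40, and the other 4 lay between 9.91 and 10.05. Mice 53 and 47 thus stood apart from the rest of their groups. ASO-NSC mice had 10.36, 10.18, 10.08 and 9.89, with 10.42 in mouse 59. Of the β subunits, Gabrb1 ranged from 10.46 (WT-Veh mouse 62) to 10.93 (ASO-NSC mouse 56), with group means from 10.65 to 10.75. Gabrb2 ranged only from 10.40 to 10.59, with group means from 10.46 to 10.51 and SDs of 0.04 to 0.06.

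The first question was whether grafted cells changed the subunits in mice with excess α-synuclein. In ASO-NSC against ASO-Veh mice the difference was -0.18 for Gabrd (standard error 0.13, 95% interval -0.46 to 0.09, adjusted p = 0.67 from limma), 0.14 for Gabra3 (-0.10 to 0.38) and 0.11 for Gabrb1 (-0.06 to 0.28). Gabra5 (0.07), Gabra4 (-0.03), Gabra2 (-0.05) and Gabrb2 (0.02) differed less. Of 7 members 0 passed at an adjusted p under 0.05, where 0.00902 percent of all genes (2 of 22180) did, and 0 had an unadjusted p under 0.05, against 8.88 percent of all genes. Gabrd moved most with the choice of arrays. It was -0.30 without the 5 arrays of discordant sex (adjusted p = 0.397, unadjusted p under 0.05) and -0.27 with mouse 59 included (adjusted p = 0.421). The median over the members was 0.02, and 0.00 over all genes.

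In WT mice, grafting was compared with saline in the same way. Gabra2 was lower in WT-NSC mice by 0.11 (standard error 0.05, 95% interval -0.22 to -0.01, adjusted p = 0.337 from limma), which does not pass. An exact two-sided permutation test over the 5 and 5 mice gave p = 0.0873. The other members differed by 0.16 (Gabra3, -0.07 to 0.38), 0.09 (Gabra5, -0.17 to 0.34), -0.07 (Gabrd, -0.34 to 0.19), -0.02 (Gabrb1), -0.01 (Gabrb2) and -0.01 (Gabra4). Again 0 of 7 passed, against 0.433 percent of all genes (96), and 1 of 7 had an unadjusted p under 0.05, against 13.5 percent. The share of all genes called here moved widely with single mice, from 4 genes without WT-Veh mouse 61 to 277 without WT-Veh mouse 67. The Gabra2 value depended on the labelled sex. Its unadjusted p from limma was 0.0639 with sex taken from the genes and 0.0794 with no sex term. Without the 5 arrays of discordant sex it was 0.0507.

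Averaged over the genotypes, the NSC difference was -0.08 for Gabra2 (standard error 0.04, adjusted p = 0.252 from limma), 0.15 for Gabra3 (-0.01 to 0.31, adjusted p = 0.305) and -0.13 for Gabrd (adjusted p = 0.446). None of the 7 passed, against 1.15 percent of all genes (256), and Gabra2 alone had an unadjusted p under 0.05, against 18.7 percent of all genes. Gabra2 also had one in WT mice, which are part of this average. For the average, the unadjusted p of Gabra2 was 0.0641 with sex taken from the genes and 0.0665 with no sex term (limma). Treatment nearly coincides with litter, and the directions depended on it. With litter as a fixed block the NSC difference of Gabra2 became 0.12 and that of Gabra3 -0.27. In that fit Gabrd was 0.30 in ASO and 0.47 in WT mice, and Gabra5 -0.47 and -0.50. Those values rest on litter 3, where WT-NSC mouse 53 had Gabrd at 9.26 and Gabra5 at 9.76 and ASO-Veh mice 46 and 47 had means of 8.85 and 10.23. They also draw on genotype differences in the other litters, because genotype differs with treatment in litter 3. Mice 53 and 47 stood apart from their groups in Gabra5, and mouse 47 is an array of discordant sex.

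The comparison of genotypes asked whether α-synuclein overexpression alone went with other subunit levels. In vehicle mice, ASO minus WT was 0.14 for Gabra3 (95% interval -0.09 to 0.37), -0.12 for Gabrd (-0.38 to 0.14), 0.10 for Gabra5 (-0.16 to 0.35) and -0.06 for Gabra2 (-0.16 to 0.05), and the others were within 0.03 of 0. None passed in limma, nor did any of the 22180 genes (0 percent), although 4.81 percent had an unadjusted p under 0.05. In NSC mice, Gabrd was lower in ASO mice by 0.23 (standard error 0.13, 95% interval -0.50 to 0.05, adjusted p = 1 from limma, exact permutation p = 0.0794), and Gabra3 higher by 0.13 (-0.11 to 0.36). Of all genes 0.00451 percent (1) passed there. Averaged over treatments, Gabrd differed by -0.17 (-0.36 to 0.01, adjusted p = 0.996 from limma) and Gabra3 by 0.13 (-0.03 to 0.30), with 0.00902 percent of genes past the threshold. The Gabrd value was -0.07 without the 5 arrays of discordant sex, -0.08 with litter as a fixed block and -0.22 with mouse 59 included (adjusted p = 0.997, 1 and 0.943 from limma).

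These genotype differences were uneven between litters. Among vehicle mice, Gabrd was lower in ASO than in WT mice by 0.16 in litter 1 (2 against 2) and higher by 0.10 in litter 5 (1 against 3). Among NSC mice it was higher by 0.01 in litter 4 and lower by 0.34 in litter 6 (2 against 2 each). Gabra3, in the same order of litters, differed by 0.12, 0.13, -0.12 and 0.23. No member had 1 sign in all 4 litters. The NSC effect itself did not pass a test of difference between ASO and WT mice for any member, with values from -0.11 (Gabrd, -0.49 to 0.27) to 0.13 (Gabrb1, -0.11 to 0.36), in a comparison that called 0 percent of all genes. Over the 28 exact permutation tests of members between pairs of groups, the smallest p was 0.0794, and no member had groups that lay apart, where 3.96, 2.28, 0.744 and 1.18 percent of all genes did in ASO-NSC against ASO-Veh, WT-NSC against WT-Veh, ASO-Veh against WT-Veh and ASO-NSC against WT-NSC mice.

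**Figure D2:**
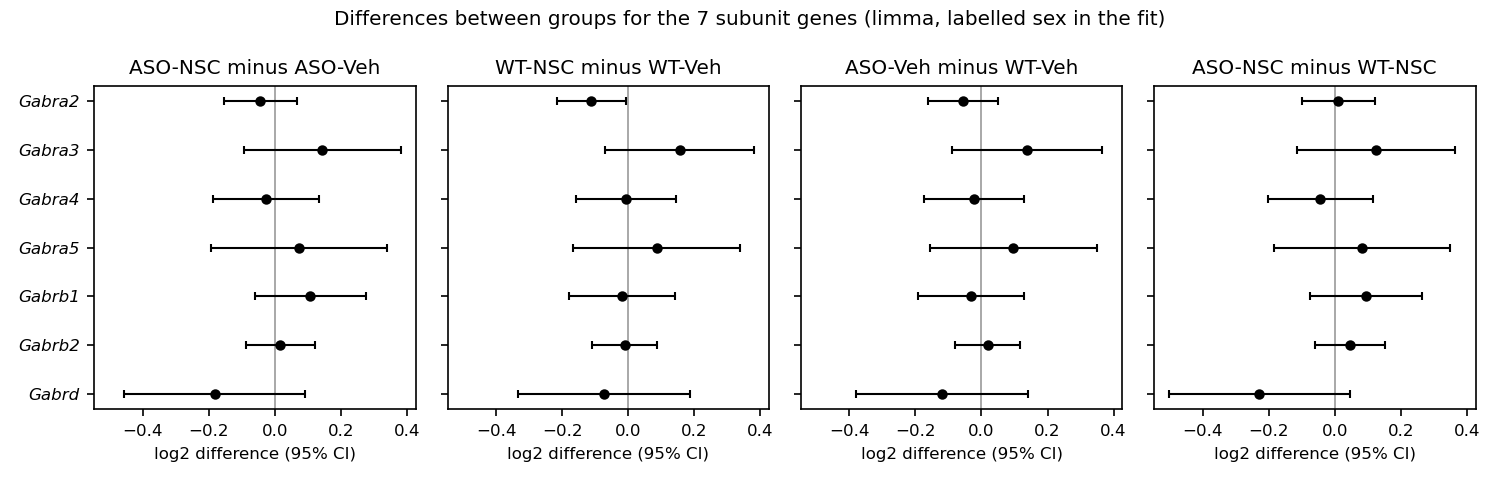
Log2 difference of each subunit gene (horizontal axis) in 4 comparisons of groups, with 95% intervals from limma with labelled sex in the fit. Of the 28 intervals, that of Gabra2 in WT-NSC against WT-Veh mice alone does not reach 0, and the intervals of Gabrd, Gabra3 and Gabra5 are the widest.

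The intervals of the fit without litter were narrowest for Gabrb2, from -7.41 to 11.0 percent at the outermost of the 4 comparisons of groups. For Gabra2 these bounds were -14.0 and 8.75 percent, and for Gabra4 -13.1 and 10.6 percent. They were -12.4 and 21.1 percent for Gabrb1, and -12.6 and 27.4 percent for Gabra5. For Gabrd -29.4 percent lay inside an interval, and for Gabra3 30.3 percent, so changes of that size were not excluded. With litter as a fixed block the intervals of NSC against vehicle were wider, in ASO mice from -20.0 to 13.9 percent for Gabrb2, from -7.06 to 30.5 percent for Gabra2 and from -19.2 to 87.9 percent for Gabrd. The outermost bounds of that fit were in WT mice, at -51.7 percent for Gabra5 and 120 percent for Gabrd.

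While no difference between groups passed, several members varied together, or in opposition, from mouse to mouse. Gabrd and Gabra4, the partners of the extrasynaptic α4 and δ receptor, followed each other, with Pearson's r of 0.80 and Spearman's rho of 0.84 over the 19 mice. Both ran opposite to Gabra3, Gabra5, Gabrb1 and Gabrb2, and Gabra2 followed neither set closely. The r of 0.80 lay within the range of the markers shared by spiny neurons, which had r with Gabrd from 0.58 (Meis2) to 0.89 (Pde1b). All correlations are descriptions over arrays of whole tissue that were normalized together, and no p is given. Of all other genes tested, 0.748 percent had an r with Gabrd at least as far from 0 as that of Gabra4, 0.843 percent as that of Gabra3, 1.39 percent as that of Gabra5, 4.94 percent as that of Gabrb1, 7.30 percent as that of Gabrb2 and 41.8 percent as that of Gabra2.

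The r of Gabrd and Gabra4 stayed at 0.72 or more in every subset tried. With group means removed r was 0.84, and with litter means removed 0.83. In the 10 vehicle mice it was 0.81 and in the 9 NSC mice 0.86. It lay between 0.76 and 0.86 when any 1 mouse was left out, and was 0.84 with mouse 59 included. Without the 2 mice farthest from the median it was 0.82 when they were taken by Gabra4 and 0.72 when taken by Gabrd. Mice with more Gabrd RNA had more Gabra4 RNA under both treatments and in both genotypes (0.83 in WT and 0.84 in ASO mice). Without the 5 arrays of discordant sex, a choice made after seeing the data, r was 0.75 (rho 0.78) over 14 mice, and Gabra3 and Gabra5 had r of -0.72 and -0.68 with Gabrd.

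Gabra3 ran against Gabrd with r of -0.80 (rho -0.77), between -0.85 and -0.74 with 1 mouse left out, and with -0.75 after removal of group or of litter means. Gabra5 did so with r of -0.77 (rho -0.60), and r was -0.59 without the 2 mice farthest in Gabrd. Gabrb1 (r -0.66, rho -0.44) depended more on single mice, with -0.46 without the 2 farthest in Gabrd, and Gabrb2 stood at -0.62 (rho -0.65). Within the opposed set, Gabra5 and Gabrb1 went together (r 0.78, rho 0.73), as did Gabra3 and Gabra5 (0.70, rho 0.52). Gabrb2, for all its narrow range, ran against Gabra4 with r of -0.75 (rho -0.74). Gabra2 had r between -0.46 (Gabra3) and 0.30 (Gabrd). Gabra4 had r of -0.63 with Gabra5 and -0.61 with Gabra3, sizes reached by 4.04 and 4.8 percent of genes with Gabra4. Gabra5 and Gabrb2 had 0.64, reached by 7.28 percent of genes with Gabra5 and 2.29 percent with Gabrb2. Some other pairs were weaker and more ordinary among genes. Gabrb1 and Gabrb2 had r of 0.37, a size reached by 29.4 percent of genes with Gabrb1. Gabra3 had 0.48 with Gabrb1 and 0.52 with Gabrb2, reached by 22.6 and 17.7 percent of genes with Gabra3. From the side of Gabrb2, the 0.52 was reached by 8.85 percent. The -0.44 of Gabra4 and Gabrb1 was reached by 17.2 percent of genes with Gabra4. Of the 21 pairs, 6 had r of 0.7 or more in size, where 0.649 (Gabrb2) to 4.4 percent (Gabra3) of all genes had such an r with a given member.

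**Figure D3:**
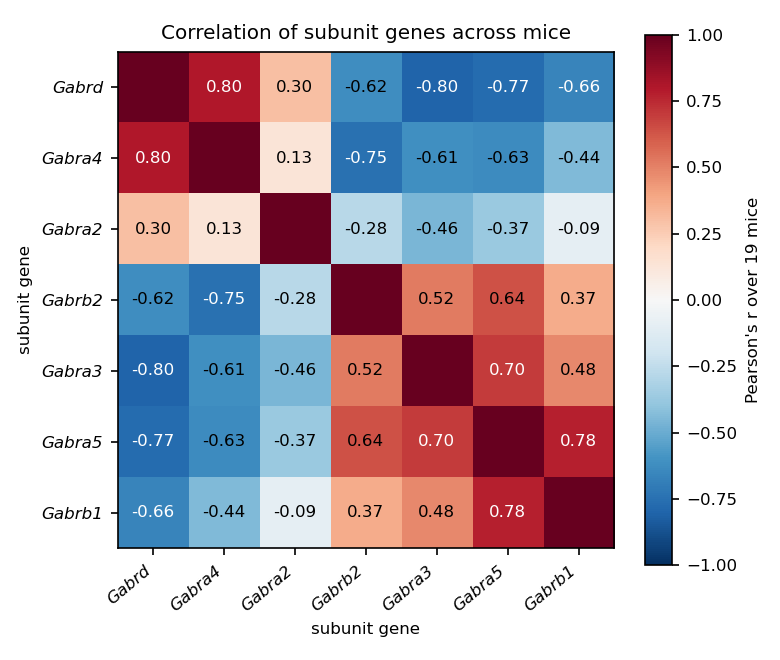
Pearson's r between each pair of subunit genes over the 19 mice of the fits, red for positive and blue for negative values. Gabrd and Gabra4 have 0.80, the pairs among Gabrb2, Gabra3, Gabra5 and Gabrb1 have 0.37 to 0.78, and the values between these sets are all negative, from -0.44 to -0.80.

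The same mice set the ends of this axis for several genes. WT-Veh mouse 62 had the highest Gabrd (9.38) with a Gabra3 of 10.36 and a Gabra5 of 9.75. WT-NSC mouse 53 was alike, with 9.26, 10.43 and 9.76. At the other end, ASO-Veh mouse 47 had Gabrd at 8.52, Gabra3 at 10.95 and Gabra5 at 10.40, and ASO-NSC mouse 56 had 8.53, 10.91 and 10.36. These 4 mice come from the 4 groups, with both WT mice at the end of high Gabrd and both ASO mice at the other. Mice 62 and 47 are among the 5 arrays of discordant sex. Mouse 59 continued the line beyond mouse 47.

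**Figure D4:**
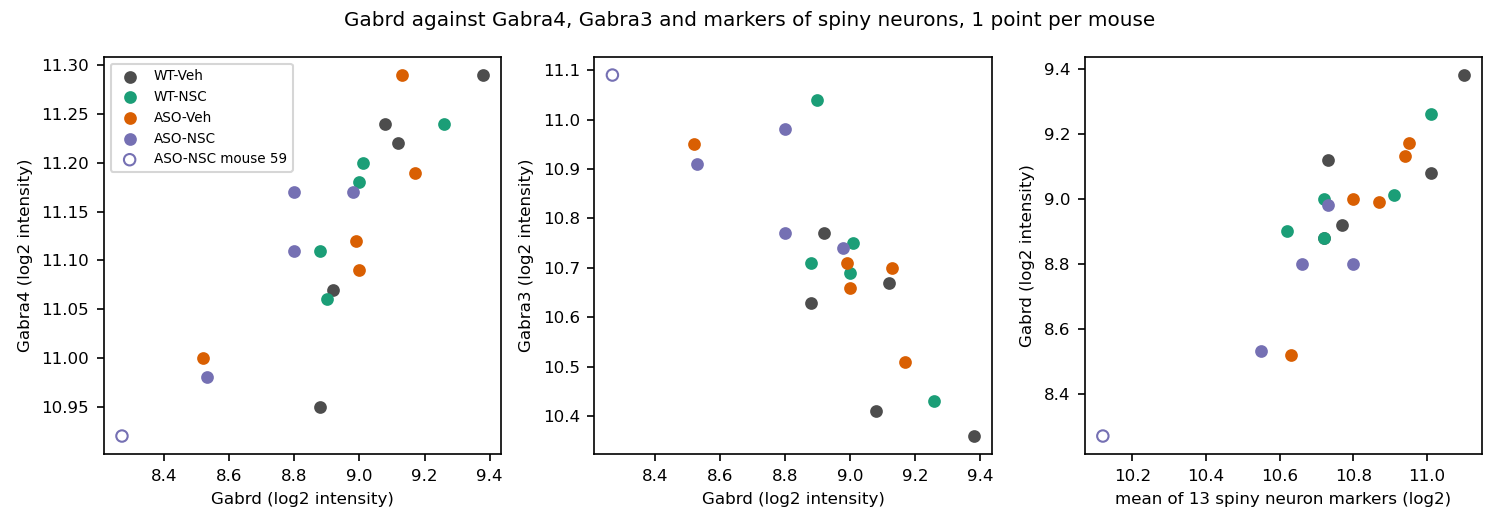
Gabra4 and Gabra3 against Gabrd (left and middle), and Gabrd against the mean of 13 markers shared by spiny neurons (right), in log2 units, with 1 point per mouse, coloured by group, and ASO-NSC mouse 59 as an open point. Gabra4 is higher and Gabra3 lower in mice with more Gabrd, and mice of all 4 groups mix along each line.

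Markers of some cell types moved along the same axis. The mean of the 13 measured markers shared by spiny neurons (of 15 listed), among them Rgs9, a regulator of G protein signalling, and the phosphodiesterase Pde10a, had r of 0.84 with Gabrd and 0.78 with Gabra4, and of -0.85 with Gabra3 and -0.80 with Gabra5 over the 19 mice. All 13 markers had a positive r with Gabrd (median 0.77) and a negative one with Gabra3 (median -0.77). By group, this mean ranged from 10.72 to 11.10 in WT-Veh, 10.62 to 11.01 in WT-NSC, 10.63 to 10.95 in ASO-Veh and 10.55 to 10.80 in ASO-NSC mice, and it was 10.12 in mouse 59. The mean of 7 thalamic and pallidal markers, among them Slc17a6, a glutamate transporter of subcortical neurons, and the transcription factor Zic1, ran the other way. It had r of -0.72 with Gabrd and 0.74 with Gabra3. Taken singly, the 7 markers had a median r of -0.47 with Gabrd and 0.49 with Gabra3. Their mean was 7.20 to 8.08 in WT-Veh, 7.71 to 8.22 in WT-NSC, 7.68 to 8.11 in ASO-Veh and 7.92 to 8.38 in ASO-NSC mice, and 8.99 in mouse 59. Some other lists ran that way too. The mean of the 10 interneuron markers had r of -0.68 with Gabrd and 0.75 with Gabra3. It ranged from 8.36 to 8.56 in WT-Veh, 8.43 to 8.75 in WT-NSC, 8.30 to 8.71 in ASO-Veh and 8.53 to 8.78 in ASO-NSC mice. The 10 markers taken singly were weaker, with a median r of -0.27 with Gabrd and 0.30 with Gabra3. Of them, 2 had a positive r with Gabrd, and Calb2 had the largest in size (-0.69). The means of neural progenitor (-0.58 with Gabrd, 5 markers) and astrocyte markers (-0.55, 6 markers) followed. Their markers taken singly had a median r of -0.42 and -0.48 with Gabrd, and 1 marker of each list had a positive r. The means of oligodendrocyte (-0.25), microglial (-0.11) and endothelial markers (-0.06) were weaker. The 15 measured cortical markers (of 16) had r of 0.14 with Gabrd and 0.13 with Gabra3. The part of cell composition or of the dissected region in the subunit values was not tested.

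Markers of spiny neurons did not all follow the axis. Among 7 markers of the D1 type, the receptor Drd1 (r 0.77), Tac1 (0.76) and Chrm4 (0.82) varied with Gabrd. Pdyn had r of 0.50, whereas Isl1 (0.07), Eya1 (-0.12) and Sfxn1 (-0.47) did not follow Gabrd. Among 5 measured D2 markers (of 6) all had a positive r (median 0.67). It was 0.84 for Drd2, 0.74 for Gpr6 and 0.67 for Penk, but only 0.27 for Sp9 and 0.11 for Grik3. Gabra2 stood apart here too, with r of 0.34 with the shared spiny markers and -0.62 with the 10 interneuron and 5 microglial markers each. All r with markers or marker means were taken with group means left in. The microglial mean ranged from 8.04 to 8.19 in WT-Veh, 8.20 to 8.46 in WT-NSC, 8.07 to 8.12 in ASO-Veh and 8.18 to 8.31 in ASO-NSC mice. It thus did not overlap between vehicle and NSC mice of either genotype, and mean Gabra2 was lower in both NSC groups. Their r therefore includes the difference between treatments, and no r within groups was taken. Of 6 astrocyte markers 1 passed in the WT comparison of NSC with vehicle, namely Gfap (0.74, adjusted p = 0.0379 from limma), where 0.433 percent of all genes did, and 0 in the ASO comparison (Gfap 0.77, adjusted p = 0.273). Averaged over genotypes, 2 of 6 passed, Gfap (0.75, adjusted p = 0.0023) and Aqp4 (0.38, adjusted p = 0.0095), with 1 of 5 microglial markers, Csf1r (0.27, adjusted p = 0.0135), against 1.15 percent of all genes. The astrocyte markers together had r of -0.58 with Gabra2 and 0.71 with Gabra3, again with group means left in. Their mean ranged from 9.57 to 9.90 in WT-Veh, 9.90 to 10.11 in WT-NSC, 9.74 to 9.86 in ASO-Veh and 9.95 to 10.23 in ASO-NSC mice.

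For each member, the 3 genes whose values were most like its own are named here, and no gene was named for more than 1 member. Gabra4 was most like Cyld (r 0.90), a deubiquitinase, the calmodulin-dependent phosphodiesterase Pde1b (0.90) and the retinoid receptor Rxrg (0.89), of which Pde1b is also among the 13 spiny neuron markers. Gabrd was most like Stard10 (0.90), Lmo7 (0.90) and Nin (0.89). Gabra3 was most like Sphkap (0.90), a protein that anchors protein kinase A, Basp1 (0.89), a growth-cone protein, and Vsnl1 (0.88), a neuronal calcium sensor. For Gabra5 they were the cadherin Cdh18 (0.90), Fam155a (0.88) and Nkrf (0.88), and for Gabrb1 the receptor phosphatase Ptprz1 (0.82), Ccdc85a (0.82) and Aff2 (0.81). Gabrb2 went with Hpcal1 (0.83), Cblb (0.79) and Parm1 (0.78). For Gabra2, Gm13546 (0.84) and Gm6614 (0.83) came first, at mean intensities of 4.44 and 3.24, and Rreb1 (0.81) next, at 8.78. All are Pearson's r over the 19 mice.

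Position in the genome did not sort the members as the mice did. Gabra2 (chr5:70958392-71095849), Gabra4 (chr5:71569734-71658308) and Gabrb1 (chr5:71657921-72149572) lie in 1 cluster with Gabrg1 on chromosome 5 of GRCm38.p6. The outermost annotated starts of Gabra4 and Gabrb1 are 387 bases apart, on opposite strands, and the genes overlap there. Across mice these neighbours had r of -0.44 (rho -0.26), whereas Gabra4 and Gabrd, on chromosome 4 (chr4:155384979-155398098), had 0.80. Without the 2 mice farthest in Gabra4 the r of the neighbours was -0.17. Gabrg1, which encodes a γ subunit and lies beyond Gabra2, varied with Gabrb1 (r 0.80) and Gabra5 (0.74) and against Gabrd (-0.79).

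Gabra3 (chrX:72432676-72656919) lies between Gabre and Gabrq, which encode the ε and θ subunits. These neighbours varied with it, but no more closely than against Gabrd on chromosome 4. Gabrq had r of 0.66 with Gabra3 and -0.72 with Gabrd, and Gabre 0.63 and -0.69. With Gabra3, a size of 0.61 was reached by 9.89 percent of genes. Of other neighbours, Gabra5 and Gabrg3 on chromosome 7 had r of -0.37, and Gabrb2 and Gabra6 on chromosome 11 -0.07. The ranges of Gabrq and Gabre were wide. Gabrq spanned 5.81 (WT-Veh mouse 62) to 8.87 (ASO-NSC mouse 56) over the 19 mice, with 9.07 in mouse 59, and Gabre 6.00 to 7.95 in the same 2 mice, with 8.05 in mouse 59. In ASO-NSC against ASO-Veh mice Gabrq differed by 1.10 (standard error 0.47, adjusted p = 0.525 from limma) and Gabre by 0.78 (standard error 0.31, adjusted p = 0.503). The 4 ASO-NSC mice had Gabrq at 8.87, 8.04, 8.05 and 8.15 and the 5 ASO-Veh mice at 7.61, 7.36, 6.91, 8.18 and 5.83, so mouse 47 overlapped. Neither gene passed in any comparison.

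Of 12 other subunit genes listed, 9 had a row, and 0 of 9 passed in any of the 7 comparisons, where 0 to 1.15 percent of all genes did. Gabrg1 ranged from 8.79 to 10.37 over the 19 mice and Gabrg3 from 9.82 to 10.32. Gabra6, a subunit of cerebellar granule cells, ranged from 3.66 to 4.62, and the ρ subunit gene Gabrr1 from 3.94 to 4.28. Averaged over genotypes, Gabrq had an NSC difference of 0.83 (adjusted p = 0.186) and Gabrg3 one of -0.13 (adjusted p = 0.241) in limma.

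Genes that make, move or anchor around the receptor gave no call either. With 0 to 1.15 percent of all genes called per comparison, 0 is the usual count in lists this short. Of 8 measured genes of GABA synthesis and transport (9 listed), 0 passed, and for NSC against vehicle their median difference was -0.00 in ASO mice and 0.08 in WT mice, beside 0.00 over all genes in both. The largest statistic there was that of Slc38a1, a neuronal glutamine transporter that supplies GABA synthesis, with 0.22 in ASO mice (adjusted p = 0.463 from limma), 0.16 in WT mice (adjusted p = 0.34) and 0.19 averaged over genotypes (standard error 0.05, adjusted p = 0.0735). Of 21 measured genes of receptor anchoring and trafficking (22 listed) 0 passed. In ASO mice Shisa7, an auxiliary protein of GABA-A receptors, differed by -0.27 (adjusted p = 0.503) and Rdx, radixin, which anchors α5 receptors to actin, by 0.17 (adjusted p = 0.483). All 5 GABA-B receptor genes listed were measured and 0 passed, with a median NSC difference of -0.01 in ASO mice and -0.03 in WT mice. Of 4 measured chloride transport genes (5 listed) 0 passed, and the chloride importer Slc12a2 differed by 0.22 (adjusted p = 0.505) and the channel Clcn2 by -0.20 (adjusted p = 0.483) in ASO mice.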

How the data were processed

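The deposited values are log2 intensities, 1 per transcript cluster and mouse, to which the authors had applied RMA through oligo. RMA removes background, brings all arrays to 1 distribution and combines the probes of a cluster, and can thereby narrow differences between mice. The genome build of the probes is not given in the sources used here. Of 41345 transcript clusters, 23521 carried 1 symbol and gave 22180 genes, with the row of the highest interquartile range kept where a gene had several. Linear models were fitted in limma (version 3.58.1, R 4.3.3) to 19 arrays, without ASO-NSC mouse 59, with a term for each group and for labelled sex, two-sided, with Benjamini-Hochberg adjustment over all genes and a call at an adjusted p under 0.05. A litter term, which the study used, nearly coincides with treatment and was an alternative. Each mouse is a replicate. The code was tested on simulated data with known changes. Permutation tests, correlations and plots used Python 3.11.15, numpy 2.4.6, pandas 2.3.3, scipy 1.17.1 and matplotlib 3.10.9. The exact tests double the smaller tail, so 5 against 5 mice allow 0.00794 and 4 against 5 allow 0.0159 at the least.

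Members named with the value in every mouse were those with an unadjusted limma p under 0.05 in any comparison (Gabra2). Gabrd, Gabra4, Gabra3 and Gabra5 were added after their values were seen. Of each list, up to 4 genes with the largest absolute statistic could be named, and the 3 genes of highest Pearson's r to each member. D1 and other markers named for their r were picked after their values were seen. The members and lists were chosen with earlier results of these data known. Other settings kept mouse 59, dropped the sex term or took it from the genes, omitted the 5 arrays with discordant sex genes, added RNA integrity or litter (fixed, or as a random block), fitted the compared groups alone, used limma's trend and robust options, averaged the probe sets of a gene, required a mean of at least 5, centred arrays on their medians, or left out each mouse. Some subunit genes are not analysed here.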

Additional observations from a re-analysis of the deposited data

Results flagged for a closer look

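Within single groups of 5 mice, 4 of 28 checks of a member found a mouse far from the others, at a gap over range above 0.71, where chance flags about 1 in 20. Gabra5 was at 9.76 in WT-NSC mouse 53, and at 10.08 to 10.15 in the other 4. Gabrd was at 8.52 in ASO-Veh mouse 47 (8.99 to 9.17 in the others). Gabrb1 was at 10.80 in WT-NSC mouse 58 (10.60 to 10.65), and Gabrb2 at 10.59 in ASO-NSC mouse 57 (10.48 to 10.51, mouse 59 included). ASO-NSC mouse 59, outside the comparisons, exceeded all 10 vehicle mice in Gabra3 (11.09, against at most 10.95), Gabra5 (10.42, against at most 10.40) and Gabrb1 (10.87, against at most 10.83).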

How the results depend on the processing

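No member passed limma's test in any of the 7 comparisons under any of the 12 other settings or with any mouse left out, and the smallest adjusted p of the 31 member values checked was 0.135 (Gabra2, NSC difference averaged over genotypes). Of 692 member values under these alternatives, 48 had the opposite sign, and the cause was not tested. With litter as a fixed block, the differences of NSC from vehicle in ASO mice became 0.14 (Gabra2), -0.29 (Gabra3), 0.095 (Gabra4), -0.47 (Gabra5), -0.032 (Gabrb1), -0.067 (Gabrb2) and 0.30 (Gabrd). In WT mice they became 0.096 (Gabra2), -0.25 (Gabra3), 0.13 (Gabra4), -0.50 (Gabra5) and 0.47 (Gabrd), and averaged over genotypes 0.12 (Gabra2) and -0.27 (Gabra3). The genotype differences in vehicle mice became 0.0087 (Gabra4), -0.011 (Gabra5) and 0.0019 (Gabrd). Without the 5 arrays whose sex genes differ from the label, they became 0.054 (Gabra4), -0.068 (Gabra5), -0.038 (Gabrb2) and 0.069 (Gabrd), and the NSC differences in WT mice 0.00014 (Gabra4) and -0.0087 (Gabra5). With sex from the genes, Gabra4 became 0.0022 for NSC in WT mice and 0.0065 for genotype in vehicle mice, and Gabrb2 -0.0045 for the latter. With no sex term Gabra4 was 0.0022 for NSC in WT mice, and with median centring Gabrb2 was -0.014 for NSC in ASO mice.

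Leaving out 1 mouse turned only values near 0. In ASO mice with NSCs against vehicle, Gabra4 ranged from -0.065 to 0.011 and Gabrb2 from -0.0027 to 0.035. In WT mice the ranges were -0.051 to 0.03 (Gabra4), -0.07 to 0.028 (Gabrb1), -0.026 to 0.0093 (Gabrb2) and -0.13 to 0.00029 (Gabrd, turned without WT-Veh mouse 62). For genotype they were -0.068 to 0.014 (Gabra4) and -0.082 to 0.016 (Gabrb1) in vehicle mice and -0.014 to 0.035 (Gabra2) in NSC mice. No paired analysis was possible because no replicate number is shared between groups, and litter, which some groups share, was the block used above.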
